A study of Mus musculus with 32 samples.

Results

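Endothelial cells line the blood vessels, and 6 genes known for their activity in these cells were followed here: Pecam1, Flt1, Kdr, Tek, Emcn and Cav1. Every probe set that the array's annotation assigns to only one of these genes was taken, which gave 10 of the 12422 probe sets (6 of 8251 genes): 1 each for Pecam1 (97830_at), Kdr (104265_at) and Tek (102720_at), 2 for Flt1 (98452_at and 98453_at), 3 for Emcn (93884_at, 93885_g_at and 94997_at) and 2 for Cav1 (97849_at and 160280_at). Probe sets of one gene measure the same transcript pool and are not replicates of each other. RNA was measured in 32 samples of wild-type FVB mice, each on its own array. Dams on normal chow gave mammary tissue on days 12 and 17 of pregnancy and on days 1, 2 and 9 of lactation (4 arrays per stage). A further set, taken on day 10 of lactation, compared mammary glands of dams whose diet held 8%, 16% or 40% fat (3 arrays each), with 3 liver arrays from the 8% diet. Dams of the 8% and 40% diets had eaten chow until lactation day 5 and soy-oil diets for the 5 days after that, while the feeding of the 16% diet is named in the titles only. Groups follow the array titles, because the description field of every 8% and 16% mammary array names the 40% diet. The tissues were whole organs, and the labels call them individual samples without tying arrays to animals, so the p-values measure the spread between these samples. Maternal age was not given in the sources used here.

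Endothelium supplies the gland with the substrates of milk, and the vessel bed of the mammary gland is known to expand in pregnancy and to serve a high blood flow in lactation. Pecam1 encodes the adhesion receptor CD31 of endothelial junctions, which platelets and leukocytes also carry. Flt1 and Kdr encode VEGF receptors 1 and 2: Kdr carries most of the growth signal of VEGF-A, while Flt1 binds VEGF-A tightly with weak kinase activity and is also made as a soluble decoy. Tek encodes Tie2, the receptor of the angiopoietins, and Emcn encodes endomucin, a sialoglycoprotein of capillary and venous endothelium. Cav1 encodes caveolin-1, the coat protein of caveolae, the flask-shaped membrane pits that are abundant in endothelium and also in adipocytes and fibroblasts. Cav1 therefore marks endothelium less strictly than the other genes of the set.

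All values are probe-set intensities, and levels and differences are given on the log2 scale unless a value is called an intensity or a fold. Tests were made only for probe sets with at least 1 group mean of 4.22 or more (intensity 18.6), which is the median of all values and is called the line here. Changes were called with limma's moderated test at a Benjamini-Hochberg adjusted p under 0.05 over all probe sets tested. Array medians ran from 16.1 to 21.5 in intensity, and arrays of one group correlated at 0.987 to 0.996 over all probe sets. As a check of the tissue labels, 9 hepatocyte genes summed to an intensity of 113347 to 123947 in liver and 481 to 1258 in mammary gland on the same diet, and 7 milk genes summed to 76 to 87.4 and 175459 to 178072. Probe sets below the line drifted upward over the stages. Those below it in all 9 groups (4776 probe sets) had an array median of 2.72 ± 0.05 at pregnancy day 12 and 3.18 ± 0.08 at lactation day 9 (SD, n = 4 each), and of the 5236 left untested in the time course 92.5% were higher at the later stage. Dim members are read against this drift below.

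Over the chow time course the endothelial genes did not move together. Pecam1 and the brighter Flt1 probe set rose from pregnancy day 12 to lactation day 9, by 3.8-fold and 1.86-fold. The bright Cav1 probe set fell 3.45-fold, 2 Emcn probe sets fell 2.15-fold and 1.68-fold, and Tek fell 1.37-fold, a call that leaving out any of 5 arrays ended (adjusted p up to 0.105). The dim probe sets of Flt1 and Emcn rose by 1.37-fold and 1.68-fold, the first of which became 0.00 on the log2 scale with dim medians set equal, and Kdr was not called. Both dim probe sets lay below the line at pregnancy day 12 and entered the test only through later stages, so their direction is no test. Of the 9 member probe sets that could be tested, 8 were called between these stages, where 77.6% of all tested probe sets were called. The 8 split into 4 higher (35.2% of all), among them both dim probe sets, and 4 lower (42.4% of all). The arrays of both stages did not overlap for 8 of the 10 members, against 69.8% of all tested probe sets. Any change over the 5 stages was called for 7 of the 9, against 87.5% of all. With the brightest probe set per gene, the median difference of the 6 genes was -0.41, against -0.13 over all tested probe sets. In whole tissue, fewer cells of a type and less RNA per cell cannot be told apart. Other genes moved with these stages: 7 of 7 milk genes rose with a median of 2.54, and 8 of 8 tested ribosomal protein genes fell with a median of -0.68. Their part in the endothelial values was not tested.

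The steps between neighbouring stages carried these differences unevenly. From pregnancy day 12 to day 17, 4 of the 9 were called (45.1% of all): Pecam1 and Flt1 98453_at rose, and Emcn 93885_g_at and 94997_at fell. The arrays of both days did not overlap for 5 of the 10 members (37.6% of all). Across delivery, from pregnancy day 17 to lactation day 1, 2 were called (23.3% of all), with Pecam1 higher and Cav1 lower. Emcn 94997_at, lower, was the 1 call between lactation days 1 and 2 (14.3% of all), and Pecam1, higher, the 1 call between lactation days 2 and 9 (25% of all). Measured from pregnancy day 17, 5 members were called at lactation day 2 (49.9% of all) and 6 at lactation day 9 (64% of all). These comparisons share arrays and are not independent of each other.

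**Figure D1:**
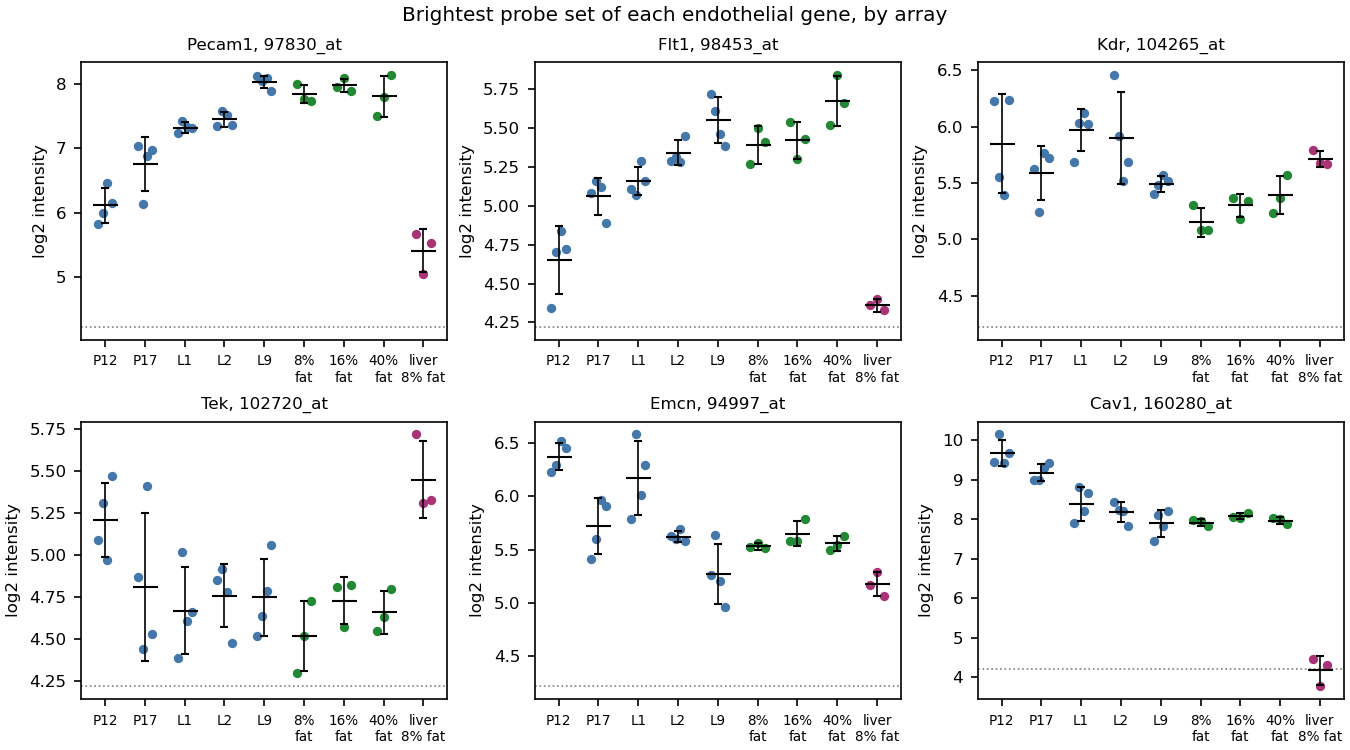
Log2 intensity of the brightest probe set of each endothelial gene, one point per array, in the 5 chow stages (P12 and P17, pregnancy days 12 and 17; L1, L2 and L9, lactation days 1, 2 and 9), the 3 mammary diet groups and liver; horizontal bars are group means, error bars the SD and the dotted line the filter line at 4.22. Pecam1 climbs from 6.11 to 8.03 over the stages while Cav1 falls from 9.69 to 7.90, and in liver Cav1 lies at the line.

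Pecam1 rose over the stages. Its intensity was 57.0, 63.6, 88.0 and 70.8 in the 4 arrays of pregnancy day 12, and 131, 70.1, 118 and 125 at day 17. At lactation day 1 it was 150, 172, 161 and 158, and at lactation day 2 it was 161, 191, 183 and 164. At lactation day 9 it reached 279, 262, 273 and 237. All 4 arrays of lactation day 9 lay above every array of the earlier stages, and replicate 2 of pregnancy day 17 lay within the range of day 12. The mean log2 level rose from 6.11 ± 0.27 to 8.03 ± 0.10 (SD, n = 4), a difference of 1.93 with an SE of 0.16 (limma, Benjamini-Hochberg adjusted p = 3.78e-09). The difference was 1.47 to 2.47 under the scalings tried. The step across delivery was 0.57 (SE 0.16, limma adjusted p = 0.0139), and 0.36 without replicate 2 of pregnancy day 17 (adjusted p = 0.0486). It missed the threshold when only both compared stages entered the fit (adjusted p = 0.0606). The later step, from lactation day 2 to day 9, was 0.59 (SE 0.16, adjusted p = 0.0108).

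Pecam1 is also carried by platelets and leukocytes, whose markers were measured beside it. Of 11 tested leukocyte and macrophage genes, 8 fell and 1 rose from pregnancy day 12 to lactation day 9 (42.4% and 35.2% of all tested probe sets). Their median was -1.87. The summed intensity, over 13 genes, went from 2613 to 3937 at the first stage to 963 to 1475 at the last. Of 5 measured platelet genes, Itgb3 and Gp9 were tested and rose, by 1.00 and 0.67. Both are dim, and with the medians of dim probe sets set equal Itgb3 rose by 0.55 and Gp9 was not called, at 0.22 (adjusted p = 0.0936). Itgb3 lay below the line at pregnancy day 12 and entered the test only through later stages, so its direction is no test. The leukocyte markers Cd52 and Adgre1 lay below the line at every stage. Coro1a, Cd68 and Tyrobp lay below it at lactation day 9 and entered the test only through earlier stages, so their direction is no test. The summed platelet genes lay at 49.5 to 66.0 at the first stage and 87.1 to 110 at the last, without correction for the drift of dim probe sets. The other 3 platelet genes, Pf4, Gp1bb and Gp5, lay below the line at every stage. The part of these cells in the Pecam1 values was not tested.

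Flt1, the VEGF receptor 1 gene, was read by 2 probe sets. Its promoter window is shown beside that of Kdr, the other VEGF receptor of the set, because the pair share a ligand and gave different calls. Each window is the 250 bases before the gene's start in RefSeq (GRCm38.p6), with GGAAG or its reverse complement CTTCC in capitals. GGAAG is one form of the shorter core, GGAA or GGAT, that ETS factors recognise. Other stretches with that core were not marked or counted. The Flt1 window is chr5:147726012-147726261 on the minus strand, and the Kdr window is chr5:75978456-75978705 on the minus strand.
Flt1: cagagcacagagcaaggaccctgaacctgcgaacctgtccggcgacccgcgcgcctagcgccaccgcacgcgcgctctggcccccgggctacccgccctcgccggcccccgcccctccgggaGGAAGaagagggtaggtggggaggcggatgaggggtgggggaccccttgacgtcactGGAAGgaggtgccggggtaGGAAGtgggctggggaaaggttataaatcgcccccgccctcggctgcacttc
Kdr: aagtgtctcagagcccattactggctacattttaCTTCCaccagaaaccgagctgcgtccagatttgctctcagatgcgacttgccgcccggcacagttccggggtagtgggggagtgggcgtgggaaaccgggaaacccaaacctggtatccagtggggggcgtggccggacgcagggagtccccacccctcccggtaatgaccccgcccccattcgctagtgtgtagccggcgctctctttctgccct
The Flt1 window holds 3 matches and the Kdr window 1, and 64.1% of the 32851 windows of this length in the table hold at least 1 on either strand. The Flt1 window is richer in G and C, at 70.4% against 61.6% for Kdr and a median of 52.4% over all windows. A match describes letters only.

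The brighter Flt1 probe set, 98453_at, rose as well. Its intensity was 20.2, 25.9, 28.7 and 26.4 at pregnancy day 12, and 52.7, 48.9, 44.1 and 41.8 at lactation day 9. Between them it was 33.9, 35.8, 34.7 and 29.6 at pregnancy day 17, 34.4, 33.7, 39.1 and 35.8 at lactation day 1, and 39.2, 39.7, 39.0 and 43.8 at lactation day 2. The first and last stages did not overlap, and pregnancy day 17 and lactation day 1 did. The difference was 0.90 (SE 0.11; means 4.65 ± 0.22 and 5.55 ± 0.15, SD, n = 4; limma adjusted p = 5.21e-07), and 0.44 to 1.27 under the scalings tried. The 1 called step between neighbouring stages was 0.41 from pregnancy day 12 to day 17 (adjusted p = 0.00498, lost with the medians of dim probe sets set equal, 0.0644). Between pregnancy day 17 and lactation day 2 the rise of 0.27 passed narrowly (adjusted p = 0.0450) and was lost when any 1 array of these stages except replicate 2 of pregnancy day 17 was left out (adjusted p up to 0.135). With array medians set equal it was 0.10 (adjusted p = 0.50).

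The dim Flt1 probe set, 98452_at, lay below the line in 4 of the 5 stages. In the time course it entered the test only through lactation day 9, so its direction there is no test. Its intensity was 14.6, 14.6, 14.8 and 13.2 at pregnancy day 12, and 19.7, 18.8, 20.1 and 19.9 at lactation day 9. The groups did not overlap, and the difference was 0.46 (SE 0.07, limma adjusted p = 1.66e-05). The median of the dim probe sets moved by nearly the same amount over these stages. With those medians set equal between arrays the difference was 0.00 (adjusted p = 0.987). The 98453_at rise kept its call there, at 0.44 (adjusted p = 0.00210).

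**Figure D2:**
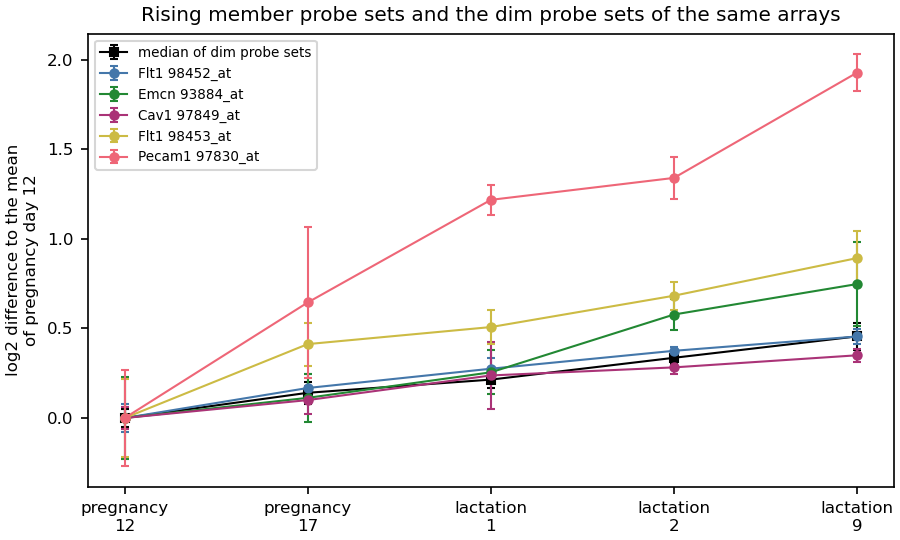
Log2 difference to the mean of pregnancy day 12 at each of the 5 chow stages, for the median of the dim probe sets (black) and 5 member probe sets; points are means of 4 arrays and bars the SD. Flt1 98452_at and Cav1 97849_at follow the black line, while Pecam1 reaches 1.93 and Flt1 98453_at 0.90 at lactation day 9.

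Kdr, the VEGF receptor 2 gene, showed no called change between any stages in the values as deposited. Its intensity was 75, 46.7, 42.0 and 75.4 at pregnancy day 12, and 49.1, 37.7, 54.8 and 52.8 at day 17. It was 51.8, 65.3, 69.7 and 65.1 at lactation day 1, 88.2, 60.6, 46.0 and 51.8 at day 2, and 42.2, 44.6, 47.6 and 45.8 at day 9. The arrays of pregnancy day 12 and lactation day 2 spread widely, and those of lactation day 9 lay close together within the range of day 12. The difference from pregnancy day 12 to lactation day 9 was -0.36 with a 95% interval of -0.78 to 0.06 (limma adjusted p = 0.111). Leaving out replicate 3 of pregnancy day 12 gave -0.51 (adjusted p = 0.0284), setting all array medians equal gave -0.62 (adjusted p = 0.0101), and scaling by the ribosomal genes gave 0.01 (adjusted p = 0.95). The ribosomal scaling also called Kdr higher than at pregnancy day 17 on lactation day 1 (0.72, adjusted p = 0.00484) and day 2 (0.82, adjusted p = 0.000917). Any change over the stages was called for Kdr under 3 scalings, by ribosomal genes (adjusted p = 0.00325), dim probe sets (0.0146) and array medians (0.0323).

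Tek, the angiopoietin receptor gene, was highest among the chow stages at pregnancy day 12. Its intensity there was 34.0, 39.6, 31.4 and 44.4. It was 29.2, 21.7, 42.5 and 23.0 at day 17, 20.9, 32.5, 24.4 and 25.3 at lactation day 1, 28.8, 30.2, 27.5 and 22.4 at day 2, and 22.9, 25.0, 27.6 and 33.4 at day 9. The ranges overlapped, with replicate 3 of pregnancy day 17 close to the highest arrays of day 12. The difference from pregnancy day 12 to lactation day 9 was -0.46 (SE 0.19, limma adjusted p = 0.0337). It lost its call when any of 5 of the 8 arrays was left out (adjusted p up to 0.105), namely replicates 1, 2 and 3 of lactation day 9 and replicates 2 and 4 of pregnancy day 12. Scaling the arrays to equal ribosomal medians left a difference of -0.09 (adjusted p = 0.672). Without replicate 3 of pregnancy day 17, the earlier fall from day 12 to day 17 passed the test, at -0.60 (adjusted p = 0.00879), where it was -0.40 with all arrays (adjusted p = 0.0897).

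Emcn, the endomucin gene, was read by 3 probe sets that moved in opposite directions. Its promoter window, chr3:137340828-137341077 on the plus strand (GRCm38.p6), is shown as that of a gene whose brighter probe sets fell, with the same letters in capitals.
Emcn: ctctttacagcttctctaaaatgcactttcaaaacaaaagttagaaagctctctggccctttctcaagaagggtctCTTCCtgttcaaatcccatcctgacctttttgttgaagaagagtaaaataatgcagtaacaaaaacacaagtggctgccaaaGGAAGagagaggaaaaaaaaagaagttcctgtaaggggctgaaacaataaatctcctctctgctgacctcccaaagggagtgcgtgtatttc
The window holds 2 matches and is poor in G and C, at 40.8%.

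The brightest Emcn probe set, 94997_at, was at intensities of 75, 78.4, 91.5 and 87.4 at pregnancy day 12 and 42.5, 48.7, 62.1 and 60.0 at day 17. It was 55.4, 95.9, 64.3 and 78.5 at lactation day 1, 49.6, 48.4, 51.6 and 47.8 at day 2, and 38.3, 49.7, 37.0 and 31.1 at day 9. Day 12 lay above both day 17 and lactation day 9 with no overlap, while lactation day 1 reached back into the range of day 12. From pregnancy day 12 to lactation day 9 it fell by 1.11 on the log2 scale (SE 0.16; means 6.37 ± 0.13 and 5.27 ± 0.28, SD, n = 4; limma adjusted p = 5.04e-06). The fall between lactation days 1 and 2, by 0.54 (adjusted p = 0.0324), was lost without any 1 array of day 2 or replicate 2 or 4 of day 1 (adjusted p up to 0.115). The difference from pregnancy day 17 to lactation day 1 was 0.45 (adjusted p = 0.0520) and passed without replicate 1 of lactation day 1 (0.58, adjusted p = 0.0152) or replicate 3 or 4 of pregnancy day 17 (adjusted p = 0.0335 and 0.0455). The fall from pregnancy day 17 to lactation day 9, by 0.45 (adjusted p = 0.0205), was lost without replicate 4 of lactation day 9 or replicate 3 or 4 of pregnancy day 17 (adjusted p up to 0.0816).

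The second Emcn probe set, 93885_g_at, fell at one step. Its intensity was 63.0, 51.0, 49.6 and 69.6 at pregnancy day 12 and 30.9, 38.3, 36.7 and 31.2 at day 17, without overlap. Over the later stages it stayed between 31.5 and 40.5. The fall from day 12 to day 17 was 0.76 on the log2 scale (a difference of -0.76, SE 0.11, limma adjusted p = 2.39e-05), and from day 12 to lactation day 9 the difference was -0.74 (SE 0.11, adjusted p = 6.14e-06). Both falls kept their call under every scaling tried.

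The third Emcn probe set, 93884_at, went the other way at a low level. Its intensity was 13.3, 18.2, 15.4 and 12.9 at pregnancy day 12 and 27.0, 19.5, 27.3 and 26.8 at lactation day 9, without overlap. The rise was 0.75 (SE 0.13, limma adjusted p = 2.18e-05). With the medians of dim probe sets set equal it was 0.29 and kept its call (adjusted p = 0.0126). This probe set lay below the line at pregnancy days 12 and 17 and lactation day 1. It entered the test only through later stages, so its direction is no test. The 3 probe sets of this gene thus gave called differences of -1.11, -0.74 and 0.75 between the same arrays. Which of them reads the endomucin transcript most directly was not tested, since the probe sequences were not used here.

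**Figure D3:**
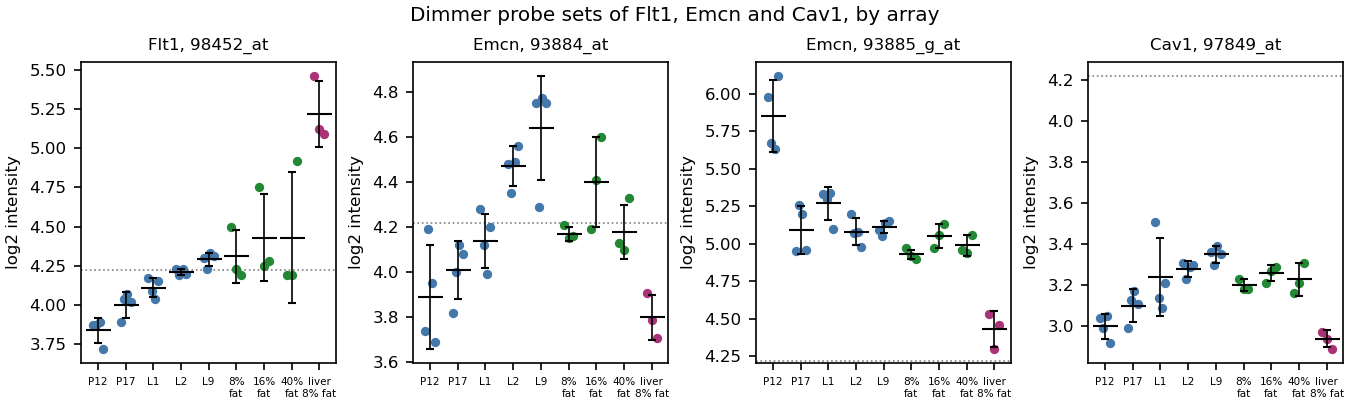
Log2 intensity of the dimmer probe sets of Flt1, Emcn and Cav1, one point per array, over the 9 groups (labels, bars and dotted line as in the plot of the brightest probe sets). Emcn 93884_at rises from 3.89 to 4.64 over the chow stages while 93885_g_at falls from 5.85 to 5.11, and Cav1 97849_at stays below the line everywhere.

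Cav1, the caveolin-1 gene, was highest at pregnancy day 12 and fell over the chow stages. Its promoter window, chr6:17306085-17306334 on the plus strand (GRCm38.p6), is shown as that of the largest fall in the set.
Cav1: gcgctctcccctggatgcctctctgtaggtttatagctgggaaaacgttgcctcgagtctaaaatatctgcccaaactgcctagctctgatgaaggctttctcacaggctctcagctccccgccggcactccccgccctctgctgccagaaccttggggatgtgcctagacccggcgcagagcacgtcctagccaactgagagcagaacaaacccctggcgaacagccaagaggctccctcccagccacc
This window holds no GGAAG or CTTCC, which says only that these letters are not in these 250 bases. A second start of the gene, at chr6:17307390-17307639 for its window, holds none either, and nor does the Tek window at chr4:94739039-94739288.

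The bright Cav1 probe set, 160280_at, had intensities of 706, 1140, 695 and 824 at pregnancy day 12, and 511, 510, 631 and 686 at day 17. It was 238, 453, 296 and 409 at lactation day 1, 345, 302, 294 and 229 at day 2, and 176, 276, 227 and 296 at day 9. Every array of pregnancy lay above every array of lactation. The mean level went from 9.69 ± 0.33 to 7.90 ± 0.34 (SD, n = 4), a difference of -1.78 (SE 0.21, limma adjusted p = 3.45e-07), and -1.41 to -2.24 under the scalings tried. The step across delivery was -0.78 (SE 0.21, adjusted p = 0.0106); scaling by the ribosomal genes left -0.44 (adjusted p = 0.0785). The earlier step within pregnancy, -0.51, did not pass (adjusted p = 0.0560), although the arrays did not overlap, and it passed without replicate 1 or 3 of day 12 or replicate 4 of day 17 (adjusted p 0.0433 to 0.0490).

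The other Cav1 probe set, 97849_at, stayed below the line in all 9 groups and was not tested in any comparison. Its intensity ran from 7.43 to 11.4 over the 32 arrays. Its group means went from 3.0 at pregnancy day 12 to 3.35 at lactation day 9, with the drift of the dim probe sets.

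The other caveola genes were read beside Cav1. Of 8 listed, 4 had a probe set and 3 were tested, and all 3 fell from pregnancy day 12 to lactation day 9 under every scaling tried. Cavin1, the cavin that assembles the caveolar coat with caveolin-1, fell by 3.58 (SE 0.30). Cavin2 fell by 2.31 (SE 0.21) and Cavin3 fell by 2.19 (SE 0.13; limma adjusted p = 6.09e-11). Cav3, the muscle caveolin, lay below the line. Markers of adipocytes and fibroblasts, which also carry caveolae, moved the same way. All 8 of 8 adipocyte genes fell with a median of -2.15, and 12 of 12 fibroblast and matrix genes fell with a median of -2.75. Over all tested probe sets the median was -0.13, and 42.4% were called lower. The summed intensity of the adipocyte genes was 7582 to 11827 at pregnancy day 12 and 1269 to 2074 at lactation day 9. No adipocyte or fibroblast gene of these lists lay below the line at any stage. The part of these cells in the Cav1 values was not tested.

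A list of 40 other endothelial genes held both directions. Of these, 29 had a probe set and 19 were tested, and from pregnancy day 12 to lactation day 9, 10 fell and 6 rose (42.4% and 35.2% of all tested probe sets), with a median of -0.58 against -0.13 over all. The largest falls were those of Sox18, a transcription factor of vessel formation (-2.37, SE 0.29), the tight junction gene Cldn5 (-2.21, SE 0.23), Cd34 (-2.12, SE 0.21) and Cd93 (-1.83, SE 0.20). Acvrl1, a BMP receptor, and Procr, the protein C receptor, were not called at 0.11 and -0.28. Chosen after their values were seen, Cdh5, the cadherin that defines endothelial junctions, fell by 1.21 (SE 0.19, limma adjusted p = 8.39e-06), and Tie1, the partner receptor of Tek, fell by 1.79 (SE 0.21). Among those that rose, also chosen after their values were seen, were the thrombomodulin gene Thbd (1.48, SE 0.25) and the water channel Aqp1 (1.33, SE 0.23). Of the called genes, Thbd, Vwf, Fli1 and Gata2 lay below the line at pregnancy day 12, and Cldn5, Tie1 and Nos3 at lactation day 9. They entered the test only through other stages, so their direction between these days is no test. The rises of Vwf, Sox7 and Fli1 were lost with the medians of dim probe sets set equal (0.24, -0.04 and -0.02), and Sox7 and Fli1 turned sign there.

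Within pregnancy, from day 12 to day 17, 10 of the 19 other endothelial genes fell and 1 rose, where 45.1% of all tested probe sets were called. Their median was -0.51 against -0.02 over all tested probe sets. Nos3 lay below the line at day 17 and entered the test only through day 12, so its direction is no test. Cdh5 stood at 7.70 at pregnancy day 17 and at 7.76 at lactation day 2, and fell by 0.75 between lactation days 2 and 9 (adjusted p = 0.00539). Its fall from day 12 to day 17, by 0.51 (adjusted p = 0.0308), was lost without any 1 of 5 of the 8 arrays, replicates 1, 2 and 4 of day 12 and 1 and 2 of day 17 (adjusted p up to 0.109), and with quantile normalization (adjusted p = 0.0645).

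A list of ligands and partner receptors of the members was read beside them. Of 19 listed, 14 had a probe set and 9 were tested, and 5 rose and 2 fell from pregnancy day 12 to lactation day 9 (35.2% and 42.4% of all tested probe sets), with a median of 0.71 against -0.13 over all. With the medians of dim probe sets set equal, 4 rose and 3 fell, with a median of 0.26. Vegfa, the ligand of Flt1 and Kdr, was at 5.40 at pregnancy day 12, 4.71 at day 17, 5.84 at lactation day 1, 5.90 at day 2 and 6.11 at day 9. It fell by 0.70 within pregnancy (adjusted p = 0.00775, and 0.0710 with quantile normalization) and rose by 1.14 across delivery (SE 0.20, limma adjusted p = 0.000275). From day 12 to lactation day 9 it rose by 0.71, and by 0.26 with the medians of dim probe sets set equal (adjusted p = 0.233). Angpt1, the ligand of Tek, rose by 1.03 across delivery (SE 0.19, adjusted p = 0.000440) and by 1.37 over the whole course. Vegfb, which binds Flt1, fell by 1.93 (SE 0.22), and Notch4, a Notch receptor known from endothelium, rose by 1.59 (SE 0.12). Apln, the apelin ligand, rose by 2.40 within pregnancy (SE 0.25) and fell by 1.68 between lactation days 2 and 9. Apln and Pgf lay below the line at pregnancy day 12 and entered the test only through later stages, so their direction from that day is no test. Vegfc, Vegfd, Angpt2, Epas1 and Aplnr lay below the line at every stage.

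**Figure D4:**
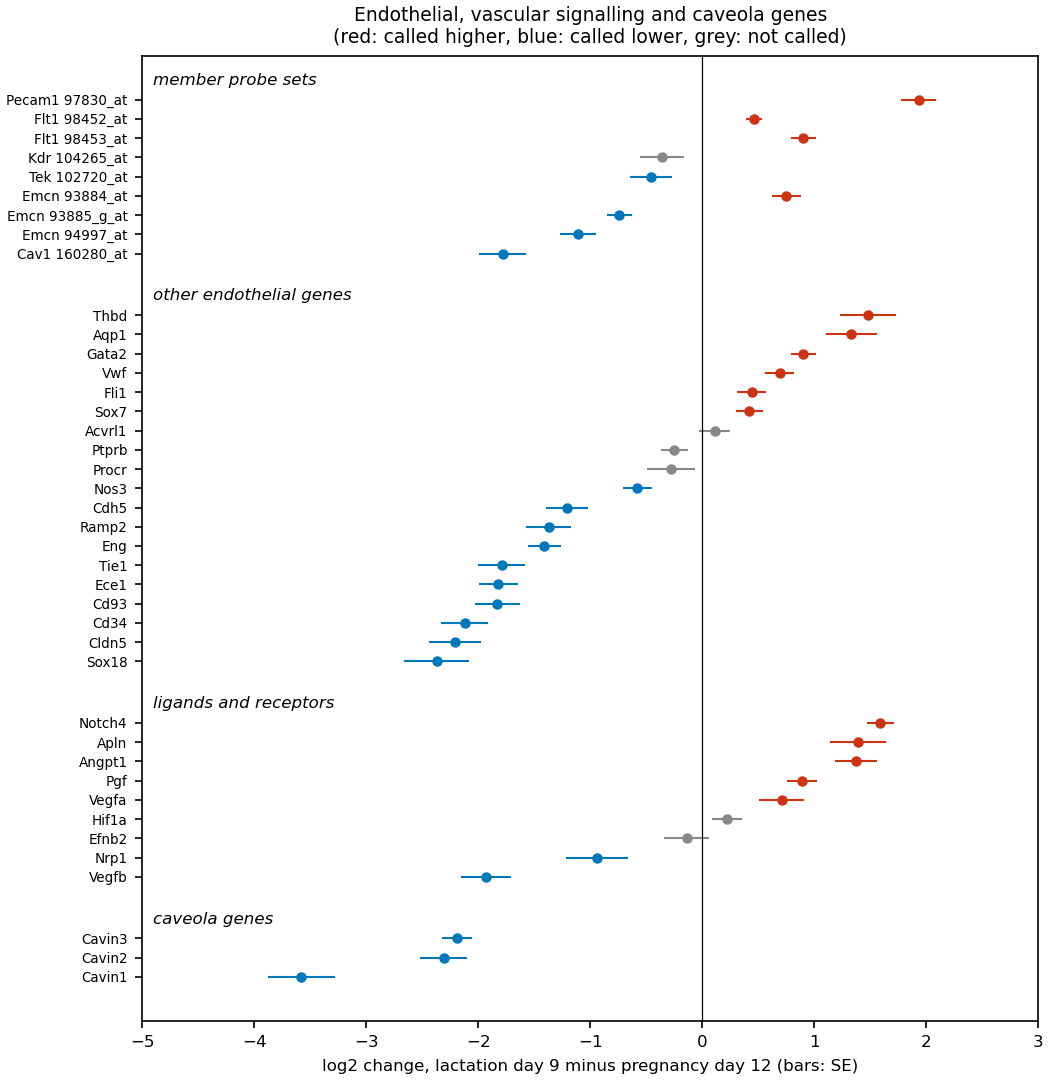
Log2 difference between lactation day 9 and pregnancy day 12 with its SE (bars) for the 9 tested member probe sets and the tested genes of 3 lists, 4 arrays per stage; red marks called higher, blue called lower and grey not called. Members span 1.93 for Pecam1 to -1.78 for Cav1, other endothelial genes span 1.48 to -2.37, and the 3 cavins lie at -2.19 to -3.58.

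The fat content of the diet made no called difference to any member. At lactation day 10, limma called 0 of the 9 tested member probe sets in each of the 3 comparisons, with 0.0926% of all 6481 tested probe sets called between 40% and 8% fat, 0% between 16% and 8%, and 0.123% between 40% and 16%. An unadjusted p under 0.05 was reached by 1 member between 40% and 8% fat and by 0 in the other comparisons, beside 538, 800 and 885 of all tested probe sets. That member was Flt1 98453_at, with intensities of 38.5, 45.1 and 42.5 on 8% fat and 45.9, 57.4 and 50.6 on 40% fat. The groups did not overlap, and the difference was 0.28 with a 95% interval of 0.02 to 0.54 (limma adjusted p = 0.546). It was the 1 member without overlap in that comparison, against 13.1% of all tested probe sets. Between 16% and 8% fat 3 members did not overlap (21.4% of all), Emcn 93885_g_at and 94997_at and Cav1 160280_at, each higher on 16% fat. Between 40% and 16% fat 1 member, Cav1 160280_at, did not overlap (17.1% of all).

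Pecam1 measured 256, 217 and 214 on 8% fat, 247, 272 and 237 on 16% fat and 181, 223 and 282 on 40% fat, and the 3 groups overlapped. Its difference between 40% and 8% fat was -0.02 with a 95% interval of -0.37 to 0.33. Cav1 160280_at measured 252, 251 and 226 on 8% fat, 264, 262 and 285 on 16% fat and 261, 258 and 235 on 40% fat. Its 16% arrays lay above every array of the other diets. Its difference between 40% and 8% fat was 0.05 with an interval of -0.16 to 0.26, and that between 16% and 8% was 0.16 with an interval of -0.05 to 0.37 (adjusted p = 0.495). For the remaining tested members the differences between 40% and 8% fat lay from 0.01 to 0.24, and each interval included 0. Set beside chow at lactation day 9, the mean level on 8% fat was 7.84 (chow 8.03) for Pecam1, 5.39 (chow 5.55) for Flt1 98453_at, 5.15 (chow 5.49) for Kdr and 7.92 (chow 7.90) for Cav1. Diet and day differ between these groups, and no test was made. Of the 16 other endothelial genes tested, limma called 1, higher on 40% than on 16% fat, and none of the 9 ligand and receptor genes passed in any diet comparison.

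Liver and mammary gland on the same 8% diet differed in every tested member. Whether liver and gland came from the same animals is not given in the labels. Of 8 tested, 8 were called, where 80% of all 6893 tested probe sets were called, and the arrays of the tissues did not overlap for 10 of the 10 probe sets (83.1% of all tested). The calls were 3 higher in liver (39.7% of all) and 5 lower (40.3% of all). Among the lower, the bright Cav1 probe set lay below the line in liver. It entered the test only through the gland, so its direction is no test. Called lower in liver were Pecam1, the bright Cav1 probe set, and also Flt1 98453_at and Emcn 93885_g_at and 94997_at, whose signs turned when arrays were scaled by the ribosomal genes, and called higher were Kdr, Tek and Flt1 98452_at. The median difference of the 6 genes was -0.69, against -0.01 over all tested probe sets. The liver sinusoids are lined by a specialised endothelium, which differs from the continuous capillaries of the gland.

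Pecam1 intensities were 51.0, 32.8 and 46.0 in liver, all below those of the gland given above, and the difference was -2.43 (SE 0.17, limma adjusted p = 5.97e-06), a 5.37-fold lower level. Cav1 160280_at was 22.2, 13.6 and 19.8 in liver and 226 or more in the gland. Its difference was -3.74 (SE 0.18, adjusted p = 5.51e-07). The liver mean of 4.18 lay under the line, so this direction is no test. Leukocyte genes summed to 2107 to 2301 in liver and 1346 to 1508 in the gland, and adipocyte genes to 1736 to 2034 and 815 to 2042. Of the adipocyte genes, Cebpa had the highest level in liver (10.68, and 7.23 in the gland). Slc2a4 was also higher in liver (7.28, and 5.97 in the gland), a call that leaving out any 1 liver array ended (limma adjusted p up to 0.0724). Adipoq, Lep, Fabp4, Lipe, Retn and Pparg were lower in liver. Of these leukocyte and adipocyte markers Adipoq, Fabp4, Retn, Ptprc, Cd52, Coro1a and Adgre1 lay below the line in liver. The lower direction of Adipoq, Fabp4 and Retn is therefore no test. The part of these markers' cells in the Pecam1 and Cav1 values was not tested. Kdr was 55.2, 51.1 and 50.8 in liver against 39.5, 33.8 and 33.7 in the gland, a difference of 0.56 (SE 0.10, adjusted p = 0.00137). Tek was 52.8, 39.7 and 40.2 in liver against 19.7, 23.0 and 26.5, a difference of 0.94 (SE 0.16, adjusted p = 0.000818). These 4 directions, of which that of Cav1 is no test, were the same under every scaling tried.

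The probe sets of Flt1 gave opposite calls between the tissues. Flt1 98453_at was 20.6, 21.1 and 20.1 in liver, below all 3 gland arrays, with a difference of -1.03 (SE 0.10, limma adjusted p = 2.97e-05). Flt1 98452_at was 44.0, 34.8 and 34.0 in liver against 22.6, 18.8 and 18.2 in the gland, a difference of 0.92 (SE 0.14, adjusted p = 0.000478). Scaled by the ribosomal genes, the first became 0.06 (adjusted p = 0.647) and the second 2.01. The Emcn differences of -0.50 for 93885_g_at and -0.35 for 94997_at also turned sign there, at 0.59 and 0.74. Ribosomal protein genes themselves were lower in liver in 7 of 8 tested (40.3% of all tested probe sets), with a median of -0.94.

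**Figure D5:**
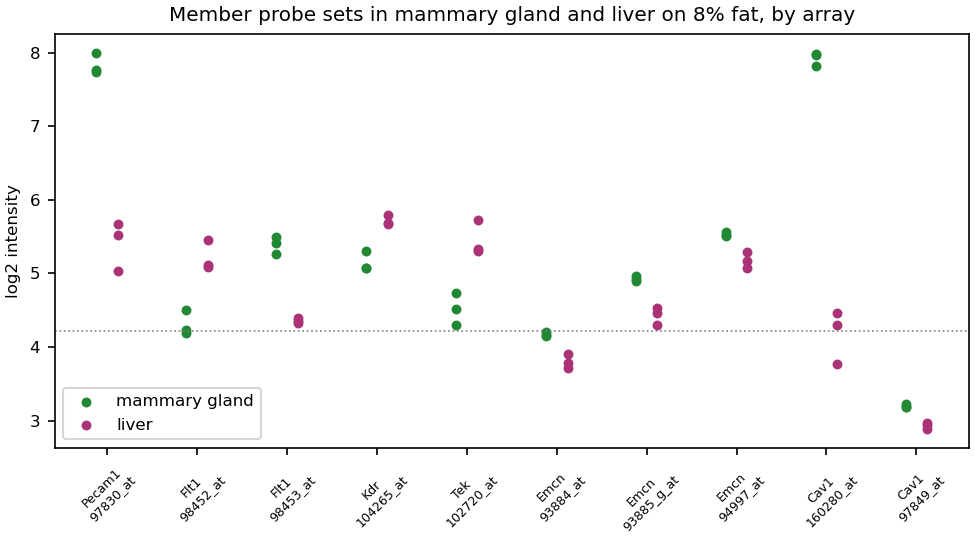
Log2 intensity of the 10 member probe sets in the 3 mammary (green) and 3 liver (purple) arrays on 8% fat, one point per array, with the filter line dotted. Cav1 160280_at shows the widest gap (7.92 against 4.18), Kdr and Tek are higher in liver, and the 2 Flt1 probe sets differ in opposite directions before any scaling.

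Genes of liver sinusoidal endothelium were read as a check on the liver arrays. The 5 with a probe set summed to an intensity of 408 to 514 in liver and 81.1 to 83.5 in the gland. Of these, Fcgr2b, Gpr182, F8 and Dnase1l3 lay below the line in all 8 mammary groups and entered the test only through liver, so their direction there is no test. Their mean levels in liver were 6.86, 7.05, 5.62 and 5.80. Stab1, a scavenger receptor measured above the line in both tissues, was higher in liver by 1.39 (SE 0.10, limma adjusted p = 5.66e-06). Flt4, VEGF receptor 3, was at 7.26 in liver and below the line in the gland, at 3.72. Of 16 other endothelial genes tested, 6 were higher and 10 lower in liver (39.7% and 40.3% of all tested probe sets). Ece1 had the largest difference, at 3.04, and Procr the largest in the other direction, at -2.34. Of these called genes, Sox7, Fli1, Cd34, Thbd and Procr lay below the line in liver, and Tie1 and Klf2 in the gland. Each entered the test only through the other tissue, so its direction is no test. Of the 29 other endothelial genes with a probe set, 18 lay below the line in liver and 15 in the gland.

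Ordered by level over the 9 groups, Pecam1 ran from lactation day 9 (8.03) through the 3 diet groups (7.98 to 7.81), lactation days 2 and 1 (7.45 and 7.32), pregnancy day 17 (6.75) and day 12 (6.11) to liver (5.41). Its neighbours in that order overlapped except lactation day 1 over pregnancy day 17 and pregnancy day 12 over liver. Cav1 160280_at ran from pregnancy day 12 (9.69) to lactation day 9 (7.90) and liver (4.18), and pregnancy day 12 over day 17, day 17 over lactation day 1, 16% over 40% fat and lactation day 9 over liver did not overlap. For Kdr and Tek every neighbour in the order overlapped, from 5.97 to 5.15 and from 5.45 to 4.52.

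Over the 29 mammary arrays, Pecam1 and Flt1 98453_at varied together (Pearson r = 0.86) and both ran against Cav1 160280_at (r = -0.88 and -0.86). Kdr went with Tek at r = 0.44 and with Pecam1 at r = -0.40. The Emcn probe sets 93885_g_at and 94997_at correlated at 0.68, and 93884_at with them at -0.47 and -0.61. These coefficients are descriptions: the arrays share their stages, so a shared course over the stages alone gives a high value. Among 6508 to 6510 candidate probe sets, those most like Pecam1 were Qsox1 (r = 0.957), St6galnac2 (0.955), Usp25 (0.944), Med27 (0.942) and Ceacam10 (0.935), and Qsox1 was also the most like Flt1 (0.917). Those most like Cav1 were Vcl and Mcam (0.954 each), Spg21 (0.953), Ugdh (0.952) and Cnn3 (0.946). For Kdr, Tek and Emcn the closest were Bin1 (0.784), Ncbp2 (0.763) and Psmd14 (0.887).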

How the data were processed

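The authors deposited 1 table of probe-set intensity on a linear scale, summarised with GCRMA per the submitters' processing notes. Its version is not given in the sources used here, nor is which arrays were normalised together. RNA came from tissue kept in RNALater, and no RNA quality values were given in the labels. The deposited intensities were floored at 1 (208 of 397504 values lay below it) and taken to log2, with no further normalisation. Probe sets without a group mean at the line were not tested.

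Fits used limma 3.58.1 in R 4.3.3, separately for the 20 chow arrays, the 9 mammary diet arrays and the 6 arrays of liver and mammary gland on 8% fat. Their p-values were adjusted by Benjamini-Hochberg over all tested probe sets. The procedure was tested on simulated data. Of 200 changed among 7186 probe sets, it recovered 90.1% of 2-fold changes between lactation day 9 and pregnancy day 12, and 51.9% of 1.5-fold changes. Between 40% and 8% fat it recovered 88.0% and 46.6% (6481 probe sets). False calls made up 4.76% and 5.29% of the calls in the first comparison, and 6.18% and 6.8% in the second. In the measured arrays 77.6% of probe sets were called between lactation day 9 and pregnancy day 12, far more than were changed here. The recovery may therefore differ there. Arrays give no counts, so their number limits the precision.

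Every member probe set is named. From the other lists up to 4 called genes by size of change and up to 2 uncalled genes by mean level are named, and the 5 probe sets most alike by Pearson's r. A gene with several probe sets is given by its brightest in the lists. The members and lists were chosen with earlier results of these data known. Promoter windows come from RefSeq, which held one for 5 of the 6 genes. The arrays' probe sequences, and liver on 40% fat, were not used here. Alternatives in filter, scaling, floor, model and samples are given in the closing section.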

Additional observations from a re-analysis of the deposited data

Results flagged for a closer look

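Chance marks about 1 in 20 groups by the measure used here, the gap of 1 array to the nearest other divided by the range of its group. Of 50 sets of 4 chow arrays tested over the 10 member probe sets, 5 held an array that stood apart. Pecam1 in replicate 2 of pregnancy day 17 had an intensity of 70.1, below 118 to 131 in the other 3 arrays, and without it the difference from day 12 to day 17 was 0.85 (limma adjusted p = 3.61e-05) in place of 0.65. Emcn 93884_at in replicate 2 of lactation day 9 had 19.5, below 26.8 to 27.3, and without it the rise from pregnancy day 12 was 0.87 (adjusted p = 2.69e-06) in place of 0.75. Flt1 98453_at in replicate 4 of lactation day 2 had 43.8, above 39.0 to 39.7, and without it the difference from pregnancy day 17 was 0.23 and no longer called (adjusted p = 0.120). Flt1 98452_at in replicate 4 of pregnancy day 12 had 13.2, below 14.6 to 14.8, and without it the difference to lactation day 9 was 0.42 (adjusted p = 9.08e-05). Emcn 93885_g_at in replicate 4 of lactation day 1 had 34.4, below 39.5 to 40.5, and no call that involved that stage changed without it. Each of the 5 stages held 1 of these arrays, each for a different probe set, and what set them apart was not tested.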

How the results depend on the processing

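Counts of called member probe sets moved most with the filter and the scaling between arrays. A filter at the 75th percentile of all values left 3 testable members in the time course and 2 in the tissue fit, so the calls became 3 for any stage, 2 for pregnancy day 17 against day 12, 2 for lactation day 2 against pregnancy day 17, 3 for lactation day 9 against either pregnancy day, and 2 for liver. With ribosomal medians set equal, 7 were called for lactation day 1 and 9 for lactation day 2 against pregnancy day 17, and 3 for lactation day 2 against day 1. The last count was 0 with quantile normalization and 2 with only the compared stages fitted, where lactation day 1 against pregnancy day 17 had 1. With array medians or, chosen after seeing the data, medians of dim probe sets set equal, lactation day 2 against pregnancy day 17 had 3, and the second gave lactation day 9 against day 2 a count of 2. Leaving out 1 array gave 7 to 8 (any stage), 4 to 5 (pregnancy day 17 against 12), 2 to 3 (lactation day 1 against pregnancy day 17), 0 to 1 (lactation day 2 against 1), 3 to 5 (lactation day 2 against pregnancy day 17), 1 to 2 (lactation day 9 against 2), 5 to 6 and 7 to 9 (lactation day 9 against pregnancy days 17 and 12), 0 (each diet comparison) and 8 (liver). Signs turned with ribosomal medians equal for Tek (0.46), Emcn 93885_g_at (0.50) and 94997_at (0.41) at lactation day 2 against pregnancy day 17, and in liver for Flt1 98453_at (0.06) and Emcn 93885_g_at (0.59) and 94997_at (0.74). With dim medians equal they turned for Flt1 98452_at (-0.03) and Emcn 93885_g_at (-0.30) at lactation day 9 against pregnancy day 17. The cause was not tested. Of 382 alternatives to 42 called member results, 350 kept direction and call, 28 lost the call and 4 turned sign. Same-numbered arrays did not deviate together: 8 of 40 pairs in the time course, 2 of 9 in the diets and 0 of 3 between tissues correlated above 0.1. With the replicate number as a block, Cav1 160280_at passed between pregnancy days 12 and 17 (adjusted p = 0.0410), Emcn 94997_at passed across delivery (0.0480) and Flt1 98453_at lost its call at lactation day 2 against pregnancy day 17 (0.0584). The shift each scaling gave the median of all tested probe sets, lactation day 9 against pregnancy day 12, was 0.25 with quantile normalization, -0.26 with array medians, 0.38 with ribosomal medians and -0.45 with dim medians equal, and the share of calls that were higher was 45.3% as reported and 55.7%, 34.5%, 61.0% and 25.4% in that order. In liver the ribosomal scaling shifted it by 1.09 and the higher share from 49.6% to 88.7%. Over all probe sets, the calls between lactation day 9 and pregnancy day 12 went from 5575 to 10370 without the filter and to 3091 with the stricter one, and those in liver from 5515 to 10292 and 3371. Ribosomal scaling took the calls from 1674 to 4008 across delivery and from 1026 to 2266 between lactation days 1 and 2, where leaving out 1 array gave as few as 521. The diet calls moved between 1 and 10 for 40% against 8% fat (6 as reported), 1 and 28 for 40% against 16% (8 as reported), and 0 and 2 for 16% against 8%. The low signal of Flt1 98452_at, Emcn 93884_at and Cav1 97849_at limits what their values can show.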

Other observations

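Pericytes and smooth muscle cells wrap the vessels that the endothelial genes mark. Of 8 tested genes of these cells, 5 fell and 1 rose from pregnancy day 12 to lactation day 9 (42.4% and 35.2% of all tested probe sets). Their median was -0.61, against -0.13 over all tested probe sets. The falls were those of Anpep (-3.63), Acta2 (-1.35), Tagln (-1.24), Myh11 (-0.74) and Notch3 (-0.41). Anpep lay below the line at lactation day 9 and entered the test only through other stages, so its direction is no test. Acta2, Tagln and Myh11 are also known from the myoepithelium of the gland. Of the pericyte genes, Rgs5 and Pdgfrb were not called, at 0.31 and -0.48, and Kcnj8 rose by 0.28. With the medians of dim probe sets set equal, 6 of the 8 fell and 0 rose. Their summed intensity was 2752 to 3800 at the first stage and 1156 to 1802 at the last. Lymphatic endothelium was read through Pdpn, which fell by 1.77 (SE 0.22, limma adjusted p = 6.16e-07), and through Lyve1, which was not called at -0.38 (adjusted p = 0.0645). Prox1, the transcription factor that defines lymphatic identity, lay below the line at every chow stage and in liver.

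In liver the caveola genes did not follow Cav1 alike. Cavin1 was lower than in the gland by 2.64 (a difference of -2.64, SE 0.14, limma adjusted p = 1.04e-06). Its liver mean of 3.97 lay below the line, so it entered the test only through the gland and its direction is no test. Cavin3 differed by -1.08 and turned to 0.02 with ribosomal medians set equal. Cavin2 differed by 0.32 (adjusted p = 0.0295), a call that leaving out any of 3 of the 6 arrays ended (adjusted p up to 0.0948). Notch4 had the widest gap of the ligand and receptor list, at 10.31 in the gland and 4.37 in liver, a difference of -5.94 (SE 0.11, adjusted p = 2.45e-09). Nrp1, a VEGF co-receptor, was higher in liver by 1.81 (SE 0.17), while Vegfa did not pass at 0.16 (adjusted p = 0.423).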
